A study of Homo sapiens with 36 samples.

Results

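Splicing genes, 10 in number, were followed through 36 RNA-sequencing libraries of human HEK293T cells: 7 that encode SR proteins (SRSF1, SRSF2, SRSF3, SRSF5, SRSF6, SRSF7 and SRSF11), the related splicing regulator TRA2A, and the CLK kinases CLK1 and CLK4. They were taken by gene symbol, through the Ensembl identifiers of the deposited count table, and made up 10 of its 61587 genes. The 10 were chosen with earlier results of these data known. All 10 were expressed in every library, with raw counts from 715 to 155962, and all 10 passed the filter on low counts, which kept 22486 genes for testing.

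SR proteins carry an RNA-recognition motif, which binds short sequences in exons, and a tail rich in arginine-serine dipeptides (the RS domain), which contacts other splicing factors. Kinases of the SRPK and CLK families phosphorylate the RS domain, the SRPKs mainly in the cytoplasm and the CLKs in the nucleus, and this controls where SR proteins reside and whether they act in splicing. Many of the genes that encode SR proteins, TRA2 proteins and CLKs limit their own output: they hold poison exons, whose inclusion routes the mRNA to nonsense-mediated decay, or introns that stay unspliced in the nucleus. Counts per gene do not separate such transcripts from the coding mRNA.

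The study determined the structure of TXNL1, a thioredoxin-like protein, on the proteasome and examined its degradation under oxidants. Its RNA sequencing compared cells in which TXNL1 was absent or altered. All 36 libraries came from HEK293T cells, a kidney-derived line that expresses the SV40 large T antigen, in which TXNL1 had been knocked out by CRISPR through lentiCRISPRv2 and cells sorted singly into isogenic clones. The knockout cells carried a vector (vector line) or were complemented with wild-type TXNL1 (WT), with the D162R R234D form, impaired in proteasome binding (DR-RD), or with a form mutated in the thioredoxin active site (SxxS). Each line received DMSO, 600 µM H2O2 or 100 µM arsenite for 6 h, in triplicate, which gave 12 groups of 3 libraries and 12 libraries per treatment. The doses and time come from the study's methods, which describe treatment in triplicate of cells grown in multiwell plates. Neither the methods nor the labels say that triplicates were separate experiments, so p-values measure only the spread between these libraries. Whether the 4 lines derive from 1 knockout clone is not given in the sources used here, so differences between clones and between TXNL1 forms cannot be told apart. Since every line is a knockout derivative, no group of unmodified cells was compared.

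Total counts ran from 42072410 to 174119002 per library (median 66016833), and the 10 genes took 0.279 to 0.300% of the counts in DMSO, 0.266 to 0.289% in H2O2 and 0.372 to 0.394% in arsenite. TXNL1 RNA separated the vector line from the complemented ones: in DMSO it stood at 30.6 CPM (counts scaled to library size) ± 1.77 (SD, n = 3) in the vector line, whereas means of the complemented lines ran from 53.4 to 62.9 CPM, and gene counts do not tell the 3 TXNL1 forms apart. Of the HEK293T marker genes, VIM stood at 466 to 588 CPM and LIN28B at 99.8 to 188 CPM over the 12 group means, but PAX2 and NEFM each lay under 1 CPM, whereas ALB, KRT5, PECAM1 and PTPRC failed the filter. In bulk samples, fewer cells of a type and less RNA per cell cannot be told apart. WT arsenite replicate 1 and WT H2O2 replicate 2 stood apart from the other 34 libraries, with SDs of 0.54 and 0.61 around their group's median on the log2 scale over 14057 genes, against 0.067 to 0.17 elsewhere. Both remained in the tests, and results that rest on them are given with and without them. In both libraries SRSF2, SRSF3, SRSF5, SRSF7 and SRSF11 were above the group's other 2 values and SRSF1, SRSF6, TRA2A and CLK4 were below them, so that CLK1 was the 1 member that lay between them in both.

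The 10 genes lie on 8 chromosomes (GRCh38, GENCODE v44), and the exon length given for each in the count table equals the union of its annotated exons. CLK1 (chr2:200853009-200864691) and SRSF7 (chr2:38743599-38751494) are on the minus strand of chromosome 2, SRSF1 (chr17:58000919-58007346) and SRSF2 (chr17:76734115-76737333) on the minus strand of chromosome 17. CLK4 (chr5:178602664-178630615) and TRA2A (chr7:23504780-23532041) are on the minus strand as well. SRSF3 (chr6:36594353-36605600), SRSF5 (chr14:69726900-69772005), SRSF6 (chr20:43457893-43466046) and SRSF11 (chr1:70205682-70253052) are on the plus strand. For SRSF3, SRSF5, SRSF7, SRSF11, TRA2A and CLK1 no exonic base overlaps another gene's exons. The overlap was 35.1% of exonic bases for SRSF1, 27.7% for SRSF2 (mainly with MFSD11 on the other strand), 13.4% for SRSF6 and 2.0% for CLK4. For SRSF6, CLK4 and most of the SRSF1 stretch the other gene is on the same strand, so strand cannot separate the reads. For MFSD11 over SRSF2 it could, but how the counting used strand was not stated. Reads in those stretches therefore cannot be assigned with certainty, and the values of SRSF1, SRSF2 and SRSF6 are uncertain to that extent.

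The promoters of the 3 genes with the largest arsenite rise (CLK1, SRSF5 and CLK4) and of the 1 gene that fell (SRSF1) are shown because a run of letters recurs in them. Each is the RefSeq window (GRCh38.p14) from 250 bases before to 50 after a transcription start, read 5′ to 3′ on the gene's strand, and capitals mark the run CCATTTTG.
CLK1, chr2:200864609-200864908 (minus strand): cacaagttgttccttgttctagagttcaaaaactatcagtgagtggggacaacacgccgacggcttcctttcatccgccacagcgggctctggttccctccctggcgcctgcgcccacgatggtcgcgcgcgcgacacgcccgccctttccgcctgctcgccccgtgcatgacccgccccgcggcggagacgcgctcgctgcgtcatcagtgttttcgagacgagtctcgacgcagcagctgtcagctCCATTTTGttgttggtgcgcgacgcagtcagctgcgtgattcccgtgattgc
SRSF5, chr14:69766892-69767191 (plus strand): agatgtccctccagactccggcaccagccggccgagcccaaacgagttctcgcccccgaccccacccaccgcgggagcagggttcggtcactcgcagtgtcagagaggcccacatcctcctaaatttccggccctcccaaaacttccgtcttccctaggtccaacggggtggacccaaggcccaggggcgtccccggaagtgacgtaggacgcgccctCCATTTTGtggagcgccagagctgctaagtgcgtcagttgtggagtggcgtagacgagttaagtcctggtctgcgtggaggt
CLK4, chr5:178627001-178627300 (minus strand): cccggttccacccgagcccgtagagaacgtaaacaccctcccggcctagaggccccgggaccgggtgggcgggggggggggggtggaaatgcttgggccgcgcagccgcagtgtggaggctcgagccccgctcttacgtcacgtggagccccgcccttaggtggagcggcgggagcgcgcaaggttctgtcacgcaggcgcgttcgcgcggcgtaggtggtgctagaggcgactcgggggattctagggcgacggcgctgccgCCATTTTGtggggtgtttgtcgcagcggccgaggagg
SRSF1, chr17:58007197-58007496 (minus strand): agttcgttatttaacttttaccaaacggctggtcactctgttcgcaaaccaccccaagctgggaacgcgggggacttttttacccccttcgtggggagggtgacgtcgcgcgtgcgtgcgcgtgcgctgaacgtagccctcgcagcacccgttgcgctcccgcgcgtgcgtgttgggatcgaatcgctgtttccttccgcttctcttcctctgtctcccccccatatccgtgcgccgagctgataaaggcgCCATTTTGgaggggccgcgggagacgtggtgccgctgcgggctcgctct

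RefSeq promoter windows were matched for 8 of the 10 genes, 11 windows in all, and SRSF2 and TRA2A had no entry. On either strand, none of the 11 held GAANNTTC (the core of the heat shock element), TGACGTCA (the cAMP response element), TGATGNAAT (a C/EBP-ATF element) or TGACTCA (an AP-1 site), which occur in 6.77%, 1.85%, 0.991% and 4.95% of the 35116 windows of 300 bases in the table. These 4 motifs do not contain one another. The run CCATTTTG was chosen after the sequences had been read and therefore carries no test: it occurred in the windows of SRSF1, SRSF5, CLK1 and CLK4 and in 1.59% of all windows. Its first base lay at -32 in SRSF5, -2 in CLK1 (the first of its 2 windows), 1 in SRSF1 and 13 in CLK4, counting the RefSeq start as 0. The gene that fell carried it as did the 3 that rose most. A match describes letters in these windows, and the factors that bind there were not measured.

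Before any oxidant, the SR protein genes were more abundant than the kinase genes. Levels between genes are compared as RPKM (CPM divided by exon length in kilobases), over the 12 DMSO libraries. SRSF2, whose product marks nuclear speckles, was highest at a mean of 143 RPKM (124 to 162), above every library of any other member. SRSF1 (101 RPKM, 94.2 to 108), SRSF7 (100 RPKM, 92.5 to 111) and SRSF3 (89.6 RPKM, 83.4 to 97.1) followed with overlapping ranges, so their order is not resolved. SRSF6 stood at 61.4 RPKM (57.6 to 66.8), clear of its neighbors. SRSF11 (30.7 RPKM, 27.9 to 31.9) and TRA2A (27.9 RPKM, 26.9 to 29.1) overlapped, and SRSF5 was lower at 19.5 RPKM (17.3 to 21.9). CLK1 at 5.61 RPKM (4.47 to 6.54) and CLK4 at 2.12 RPKM (1.92 to 2.35) were lowest, and neither range met another member's.

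**Figure D1:**
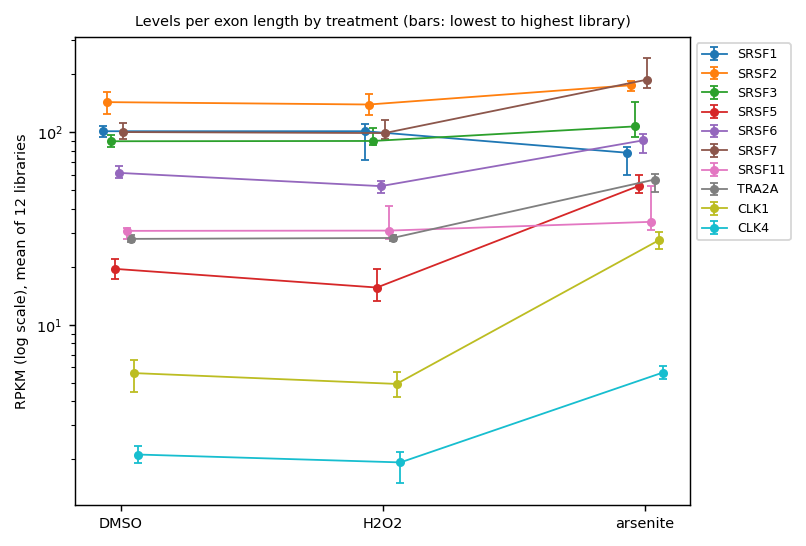
Mean RPKM of each gene over the 12 libraries of each treatment, on a log axis, with bars from the lowest to the highest library. SRSF2 leads in DMSO at 143 RPKM, SRSF7 reaches 187 RPKM in arsenite, and CLK1 rises from 5.61 to 27.4 RPKM while CLK4 stays lowest in every treatment.

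Arsenite raised 9 of the 10 genes and lowered SRSF1. Both CLK kinase genes, SRSF5 and TRA2A at least doubled, SRSF7 rose by 1.86-fold, SRSF6 by 1.48-fold, and SRSF2, SRSF3 and SRSF11 rose by 1.11- to 1.22-fold. The comparison set the mean of the arsenite groups of the 4 lines against the mean of their DMSO groups, with edgeR's quasi-likelihood test and a Benjamini-Hochberg adjusted p under 0.05 as the call. By that rule 68.8% of all tested genes were called, 37.4% higher and 31.5% lower, so being called was common, and members are described by size and direction as well. The median log2 fold change was 0.73 over the 10 members and 0.06 over all genes tested. Because the 10 were chosen with earlier results of these data known, setting them against all genes carries no test. A rule that also asks for a log2 fold change of 0.5 or more in either direction called 6 of the 10, against 36.2% of all genes. The normalized CPM of the 12 arsenite libraries lay wholly outside the range of the 12 DMSO libraries for 8 of the 10 (30.0% of all genes), and also for 8 of the 10 when WT arsenite replicate 1 was left out (35.7% of all genes). The exceptions were SRSF3 and SRSF11. All 10 were called without both outlying libraries too, when 73.7% of all genes were. Of 6 HEK293T markers, arsenite raised PAX2 (1.11 on the log2 scale, at under 1 CPM), KRT18 (0.42) and KRT8 (0.34) and lowered LIN28B (-0.71), with VIM and NEFM not called. Of the 2 markers of other cell types that passed the filter, MYOD1, under 1 CPM, was lower (-0.66) and ACTA2 was not called. The part of these markers in the result was not tested.

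**Figure D2:**
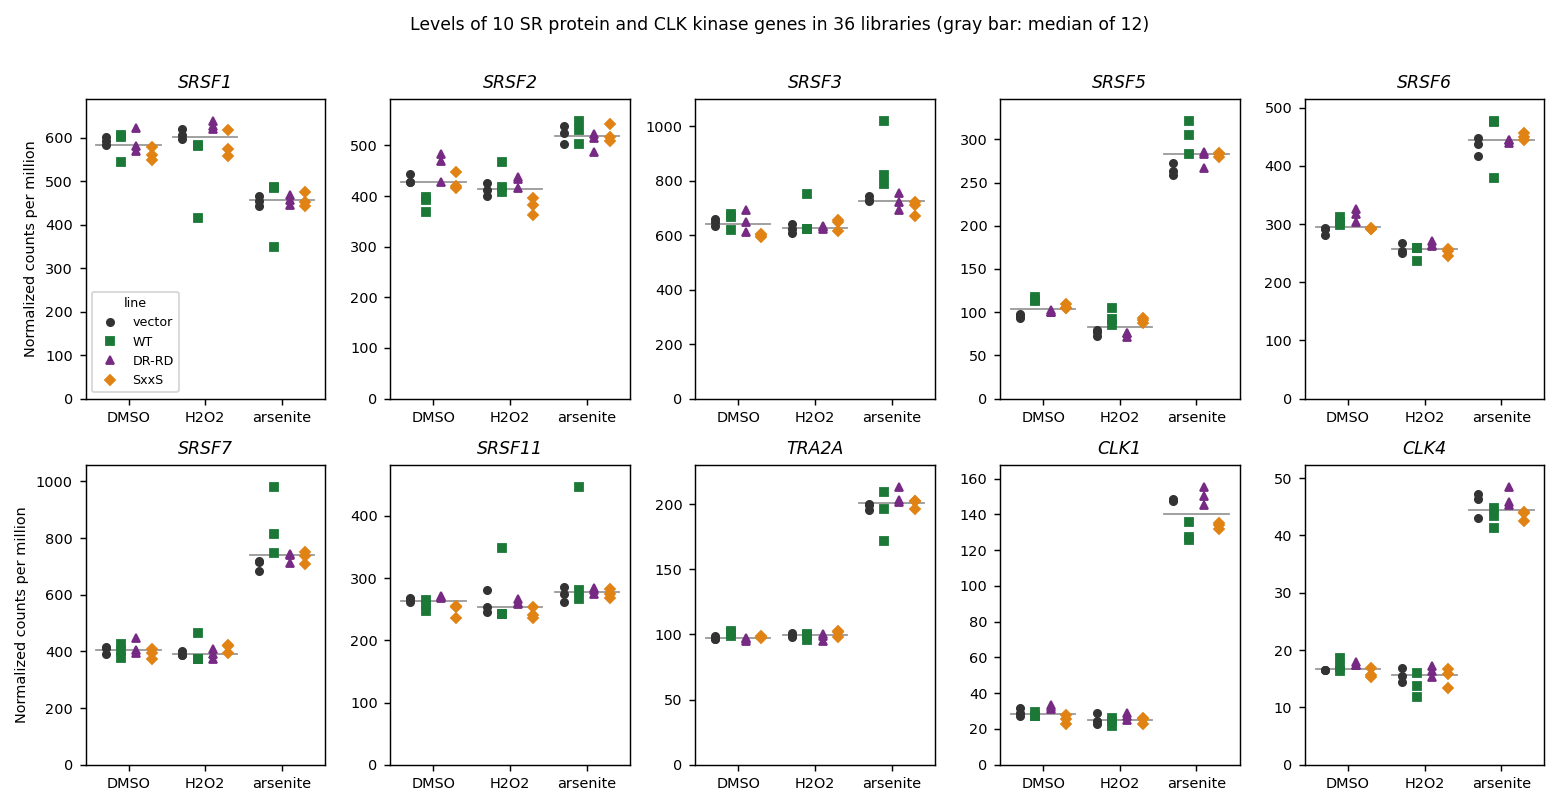
Normalized CPM of each gene in all 36 libraries (linear axes from 0), by treatment, with a symbol for each line and a gray bar at the median of the 12 libraries. Arsenite libraries sit above all DMSO libraries for SRSF2, SRSF5, SRSF6, SRSF7, TRA2A, CLK1 and CLK4 and below them for SRSF1, and the WT points at 446 and 348 CPM in SRSF11 are the outlying libraries.

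CLK1, a dual-specificity kinase that phosphorylates SR proteins in the nucleus, responded most. Its level was 22.9 to 33.5 CPM (median 28.3) in the 12 DMSO libraries and 126 to 155 CPM (median 140) in the 12 arsenite libraries. Every arsenite library exceeded every DMSO library by a wide margin. The log2 fold change was 2.29 (SE 0.04, 95% interval 2.20 to 2.38), a 4.89-fold rise (adjusted p 1.99e-27). CLK4, a closely related kinase, went from 15.2 to 18.6 CPM (median 16.7) to 41.3 to 48.4 CPM (median 44.4), again without overlap. Its log2 fold change was 1.41 (SE 0.04), or 2.66-fold (adjusted p 2.77e-22). Per exon length CLK1 in arsenite reached 27.4 RPKM and CLK4 reached 5.64 RPKM, about the level CLK1 had in DMSO.

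Among the SR proteins SRSF5, a splicing enhancer-binding factor also known as SRp40, rose most. It went from 92.9 to 117 CPM (median 103) in DMSO to 259 to 321 CPM (median 283) in arsenite. No library of the 2 treatments overlapped, and the log2 fold change was 1.44 (SE 0.03), or 2.70-fold (adjusted p 1.47e-26). SRSF7, an SR protein with a zinc knuckle that also takes part in mRNA export, went from 374 to 448 CPM (median 404) to 683 to 980 CPM (median 740). Its highest value belonged to WT arsenite replicate 1, and the highest of the other 11 libraries was 814 CPM. The log2 fold change was 0.90 (SE 0.04, adjusted p 4.13e-18), and 0.85 (SE 0.02) without both outlying libraries. SRSF7 thereby overtook SRSF2 in mean RPKM, at 187 against 175, although their ranges overlapped (169 to 242 and 164 to 184).

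SRSF6, also known as SRp55, went from 282 to 327 CPM (median 295) to 380 to 477 CPM (median 445), a log2 fold change of 0.56 (SE 0.03, adjusted p 2.60e-16). ENSG00000288000, which overlaps its exons on the same strand, changed by 0.69 (adjusted p 5.90e-12). SRSF2 went from 368 to 483 CPM (median 428) to 487 to 548 CPM (median 519), ranges that nearly touched, with a log2 fold change of 0.29 (SE 0.03, adjusted p 3.83e-10). MFSD11, which overlaps SRSF2 on the other strand, changed by 0.41 (adjusted p 4.01e-12), and reads of the pair cannot be told apart without strand. SRSF3, the smallest SR protein, went from 594 to 691 CPM (median 641) to 670 to 1020 CPM (median 727), with 10 of the 12 arsenite libraries above all DMSO libraries. Its log2 fold change was 0.24 (SE 0.04, adjusted p 8.46e-07), and 0.20 (SE 0.02) without both outlying libraries. SRSF3 has 5 pseudogenes named in the annotation, which together held at most 1.82% of its count in any library.

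SRSF11, a divergent SR-like protein, changed least. It went from 236 to 271 CPM (median 263) in DMSO to 262 to 446 CPM (median 277) in arsenite, and its highest value was again WT arsenite replicate 1, with 285 CPM as the highest of the other 11. The log2 fold change was 0.15 (SE 0.06, adjusted p 0.027) with all libraries and 0.07 (SE 0.02, adjusted p 0.0053) without both outlying ones, and it lost its call when WT arsenite replicate 1 alone was left out (0.09, adjusted p 0.0719) or DR-RD DMSO replicate 3 was (0.14, adjusted p 0.0625). By DESeq2 it was 0.13 (adjusted p 0.0626). The median of all genes moved by 0.06 in the fit with all libraries, and that median is not given for the fit without the outlying ones.

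SRSF1, the prototype SR protein, was the 1 member that fell. It went from 544 to 622 CPM (median 582) in DMSO to 348 to 485 CPM (median 455) in arsenite, and every arsenite library was below every DMSO library. The lowest value was WT arsenite replicate 1, and the other 11 lay between 442 and 485 CPM. The log2 fold change was -0.37 (SE 0.05, adjusted p 9.51e-08), and -0.35 (SE 0.02) without both outlying libraries. ENSG00000266086, which covers 32.7% of the exonic bases of SRSF1 on the same strand, changed by -0.29 (adjusted p 0.000235).

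TRA2A, a relative of the fly sex-determination factor transformer-2 that binds purine-rich exonic enhancers, had the tightest DMSO range. It went from 94.7 to 102 CPM (median 97.6) to 171 to 213 CPM (median 201), with no overlap. The log2 fold change was 1.02 (SE 0.03, adjusted p 1.70e-24), or 2.03-fold. The lowest arsenite value was an outlying library, and the other 11 lay between 196 and 213 CPM. TRA2B, its paralog, which was outside the 10, changed by 1.03 (SE 0.02, adjusted p 2.03e-27).

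H2O2 left most of the 10 genes near their DMSO level and lowered 4 of them slightly: SRSF5, SRSF6, CLK1 and CLK4. These are also among the genes that arsenite raised, and both comparisons used the same DMSO libraries. In the average over lines 12.1% of all genes were called, 6.78% higher and 5.30% lower, and 0 of the 10 members rose. The largest fall among members, that of SRSF5, was to 0.800 of the DMSO level, so the rule that also asks for 0.5 or more on the log2 scale called 0 of the 10 (1.66% of all genes). The members' median log2 fold change was -0.03, against 0.005 over all genes. Ranges of the 12 libraries did not overlap for 1 of the 10, SRSF6 (1.15% of all genes), nor did they without WT H2O2 replicate 2 (2.00% of all genes). Among HEK293T markers H2O2 raised PAX2 (0.71) and VIM (0.20), and their part in the result was not tested.

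SRSF5 fell from 92.9 to 117 CPM (median 103) to 71.2 to 104 CPM (median 82.7), with 10 of 12 H2O2 libraries below all DMSO libraries. The log2 fold change was -0.32 (SE 0.03, adjusted p 3.27e-09). SRSF6 went from 282 to 327 CPM (median 295) to 236 to 271 CPM (median 258), all 12 below DMSO, with a log2 fold change of -0.23 (SE 0.03, adjusted p 2.76e-06). ENSG00000288000, the gene overlapping SRSF6, changed by -0.23 (adjusted p 0.00673). CLK1 at 21.6 to 29.0 CPM (median 25.2) and CLK4 at 11.9 to 17.2 CPM (median 15.7) overlapped DMSO in 9 and 8 of the 12 libraries. Their log2 fold changes were -0.18 (SE 0.04, adjusted p 0.00284) and -0.14 (SE 0.04, adjusted p 0.0267), and CLK4 was called in 25 of 34 alternative settings. Leaving out WT DMSO replicate 3, SxxS DMSO replicate 3, vector H2O2 replicate 3, DR-RD H2O2 replicate 3 or SxxS H2O2 replicate 3 ended the CLK4 call (-0.13 to -0.12, adjusted p 0.0533 to 0.0615).

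For the other 6 genes H2O2 gave no call, and the 95% intervals bound what was missed. SRSF1 had a log2 fold change of 0.01 (-0.09 to 0.11), SRSF3 of 0.00 (-0.07 to 0.08) and SRSF11 of 0.00 (-0.12 to 0.13). SRSF7 had -0.02 (-0.10 to 0.06), and TRA2A had 0.02 (-0.03 to 0.07), the narrowest of the 10. SRSF2 had -0.05 (-0.10 to 0.01) and became called without both outlying libraries (-0.07, adjusted p 0.0214), which made 5 of the 10 called while the share of all genes called rose to 28.6%.

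**Figure D3:**
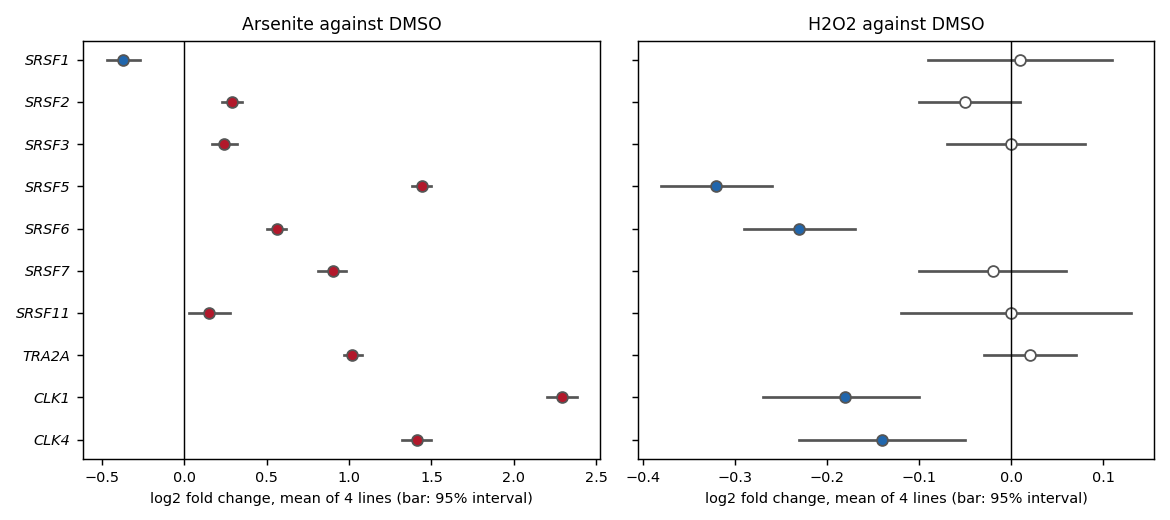
Log2 fold change of each gene against DMSO, averaged over the 4 lines, with 95% intervals, for arsenite (left) and H2O2 (right, on a narrower axis). Red points are called higher, blue points called lower and open points not called: 9 red and 1 blue in arsenite, 4 blue and 6 open in H2O2.

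Set directly against H2O2, arsenite gave higher levels of the same 9 genes and a lower level of SRSF1. In this comparison 68.7% of all genes were called, 37.3% higher and 31.3% lower. CLK1 differed by 2.47 on the log2 scale (SE 0.04, 5.56-fold), SRSF5 by 1.76 (SE 0.03, 3.38-fold) and CLK4 by 1.55 (SE 0.04, 2.93-fold). TRA2A differed by 1.01, SRSF7 by 0.91, SRSF6 by 0.79 and SRSF2 by 0.33. SRSF3 differed by 0.24 and SRSF1 by -0.37. SRSF11 differed by 0.15 (adjusted p 0.0309), and it was called in 24 of 34 alternative settings. The SRSF11 call ended without WT arsenite replicate 1 (0.08, adjusted p 0.0856), vector arsenite replicate 2, vector H2O2 replicate 3 or WT H2O2 replicate 1 or 3 (0.13 to 0.14, adjusted p 0.0501 to 0.066).

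The study's lines allow the question of whether TXNL1 or its mutants alter these responses, and no difference between lines was detected for the 10 genes. For arsenite the paper reports observing no specific differences between its lines, TXNL1 aside, in transcripts or proteins. Within lines, arsenite changed 9 members in the vector line (43.4% of all genes called), 10 in WT (53.6%), 8 in DR-RD (44.0%) and 9 in SxxS (43.6%). CLK1 rose by 2.34, 2.21, 2.22 and 2.40 on the log2 scale in the vector, WT, DR-RD and SxxS lines (SE 0.09 each). CLK4 rose by 1.46, 1.32, 1.41 and 1.45, SRSF5 by 1.47, 1.40, 1.46 and 1.41, and TRA2A by 1.03, 0.94, 1.10 and 1.04 in the same order. SRSF1 changed by -0.39, -0.41, -0.37 and -0.30, all called. Its WT value was -0.27 (adjusted p 0.0105) without WT arsenite replicate 1, -0.30 without both outlying libraries, and -0.44 (adjusted p 0.0571) when only the groups compared were fitted.

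The members not called in every line were those with small changes. SRSF11 was called in WT (0.37, adjusted p 0.0124), and without the outlying libraries its WT value was 0.07 (adjusted p 0.219). Its values in the vector, DR-RD and SxxS lines were 0.05, 0.05 and 0.15, none called. Without both outlying libraries SRSF11 was called in SxxS (0.13, adjusted p 0.00606) and not in the vector line (0.03) or DR-RD (0.04). SRSF3 was called in the vector (0.18), WT (0.42) and SxxS (0.23) lines and not in DR-RD (0.15, adjusted p 0.0921). Its WT value was 0.40 (adjusted p 0.0635) when only the groups compared were fitted. Without both outlying libraries its WT value was 0.27, and DR-RD was called (0.14, adjusted p 0.00324). SRSF2 changed by 0.27, 0.45, 0.14 and 0.29 in the vector, WT, DR-RD and SxxS lines, all called. These small calls were fragile. SRSF3 in the vector line lost its call in each of the 6 fits without a library of either group (0.17 to 0.19, adjusted p 0.0691 to 0.12) and by DESeq2 (0.15, adjusted p 0.0889). SRSF2 in DR-RD lost it without DMSO replicate 1 or 2 or arsenite replicate 1 or 2 (0.09 to 0.16, adjusted p 0.0573 to 0.25), and SRSF3 in SxxS without arsenite replicate 3 (0.20, adjusted p 0.0507).

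**Figure D4:**
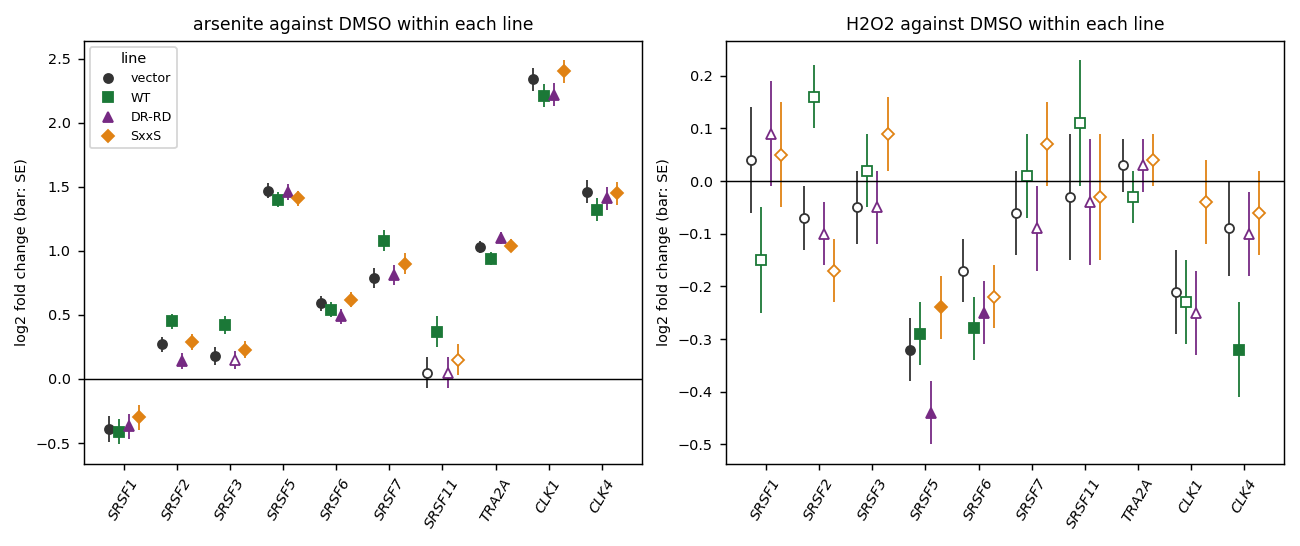
Log2 fold change of each gene within each line, with SE bars, for arsenite (left) and H2O2 (right, on a narrower axis); filled symbols are called and open symbols not. The 4 lines lie close together for CLK1 (2.21 to 2.40), CLK4, SRSF5 and TRA2A, and in arsenite WT is highest for SRSF2, SRSF3, SRSF7 and SRSF11. Without both outlying libraries SRSF11 is 0.07 in WT (not called) and 0.13 in SxxS (called). WT then stays highest for SRSF2, SRSF3 and SRSF7 (0.93, against 0.88 in SxxS).

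Within lines H2O2 changed 1 member in the vector line (1.35% of all genes called), 3 in WT (8.06%), 2 in DR-RD (1.03%) and 1 in SxxS (1.02%). SRSF5 was the member called in every line, with -0.32, -0.29, -0.44 and -0.24 on the log2 scale in the vector, WT, DR-RD and SxxS lines. SRSF6 was called in WT (-0.28) and DR-RD (-0.25), with -0.17 (adjusted p 0.196) in the vector line and -0.22 (adjusted p 0.0797) in SxxS. CLK4 was called in WT (-0.32, adjusted p 0.0177), which became -0.23 (adjusted p 0.056) without both outlying libraries. Without them SRSF6 was called in the vector line (-0.18) and in SxxS (-0.22). So were SRSF2 in SxxS (-0.17, adjusted p 0.0107) and CLK1 in DR-RD (-0.26, adjusted p 0.0291). The shares of all genes called within lines in that fit are not given here, so these gains do not compare members with other genes. In SxxS the SRSF5 call ended in each of the 6 fits that left out a library (-0.26 to -0.21, adjusted p 0.052 to 0.195). In DR-RD the SRSF6 call ended without DMSO replicate 2 or 3 or any of the 3 H2O2 replicates (-0.27 to -0.23, adjusted p 0.0762 to 0.157). In WT the CLK4 call ended without DMSO replicate 3 (-0.27, adjusted p 0.0944) or the outlying H2O2 replicate 2 (-0.22, adjusted p 0.167). CLK1 (-0.29, adjusted p 0.0268) and SRSF2 (0.18, adjusted p 0.0496) became called in WT without H2O2 replicate 1, and SRSF2 (0.19, adjusted p 0.0347) without H2O2 replicate 3.

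Tested directly as an interaction, the arsenite response differed between the 4 lines for 0 of the 10 members and for 0 of 22486 genes (0%) by edgeR, with 1432 genes at an unadjusted p under 0.05, and DESeq2 called 35 genes, none a member. The smallest member p was that of SRSF2 (0.00808, adjusted p 0.698). For H2O2, 0.685% of genes differed between lines (154 genes) and again 0 of the 10, with SRSF2 lowest (p 0.00251, adjusted p 0.16). Without both outlying libraries 46 genes passed for arsenite and 340 for H2O2, and no member was among them.

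In DMSO the lines differed little. WT against vector called 1 of the 10, SRSF5 (0.196% of all genes called), and DR-RD against vector and SxxS against vector called 0 of the 10 (0.0267% and 0.0178%). SRSF5 stood at 95.4 CPM ± 2.61 (SD, n = 3) in the vector line, 101 ± 1.04 in DR-RD, 106 ± 2.90 in SxxS and 115 ± 2.31 in WT. The WT libraries (113 to 117 CPM) did not overlap the vector libraries (92.9 to 98.1 CPM), and the log2 fold change was 0.27 (SE 0.06, adjusted p 0.0429). That call was lost in each of the 6 fits that left out a library of either group, with the fold change between 0.25 and 0.29, and it held without both outlying libraries (adjusted p 0.000137), where SRSF2 was called too (-0.16, adjusted p 0.0293). In edgeR's test, SRSF2 also differed between WT and vector at an unadjusted p under 0.05 (-0.16, p 0.00785), as did SRSF6 between DR-RD and vector (0.13, p 0.0372) and SRSF5 and CLK1 between SxxS and vector (0.16, p 0.0106, and -0.21, p 0.0179).

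The group means of the 2 kinase genes followed each other closely. Over the 12 group means of log2 CPM, among 10778 genes, Pearson's r between CLK1 and CLK4 was 0.998, which placed each among the other's 3 most similar genes. Such coefficients describe 12 points that share the step between arsenite and the other treatments, so many genes reach high values. The others nearest to CLK1 were AZI2 (0.998) and STAG3L5P-PVRIG2P-PILRB (0.998), and those nearest to CLK4 were AZI2 (0.998) and TYW1 (0.998). TRA2A was nearest to YTHDC1, DLST and DDX11 (0.999 each) and SRSF5 to CNTROB, RNPC3 and ANAPC7 (0.995 each). SRSF7 was nearest to TAF1D, SNHG1 and DAP3 (0.996 to 0.997).

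With all libraries, SRSF6 and SRSF2 each had a neighbor that shares their exons, ENSG00000288000 (0.996) and MFSD11 (0.979), beside DDX5 (0.994) and PRC1 (0.993) for SRSF6 and FDXR (0.982) and CYTH1 (0.980) for SRSF2. SRSF1 was nearest to TMEM263 (0.995), RBMXL1 (0.992) and PRDM6 (0.988). SRSF3 was nearest to RPL7, SGO1 and CHURC1 (0.975 to 0.978), and SRSF11 to RPS3A, SH3D19 and NDUFB5 (0.971 to 0.975). Without both outlying libraries CLK1 and CLK4 led each other's lists (0.999), whereas most other lists changed. ENSG00000266086, which shares exons with SRSF1, was then nearest to SRSF1 (0.997), and ENSG00000288000 was again nearest to SRSF6 (0.996). MFSD11 was no longer among the 3 nearest to SRSF2, which were PTBP1, ARHGAP4 and NAA10. Those nearest to SRSF3 were RPL24, CKS1B and RTF2, to SRSF5 AARSD1, ZFAND1 and PTGES3L-AARSD1, and to SRSF7 SNHG1, ZMYM5 and SARNP. Those nearest to SRSF11 were TRAPPC9, STX8 and RPS3A, and to TRA2A DLST, RNF111 and SAP30BP.

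Other genes of the splicing machinery put these values in context, from lists chosen with earlier results of these data known. In arsenite 37.4% of all tested genes were called higher and 31.5% lower, so list counts near these shares are not particular to a list. Of 6 other SR proteins, arsenite raised 3 and lowered 3, with a median log2 fold change of 0.01. TRA2B (1.03) and SRSF4 (0.56) rose most, with SRSF12 at 0.13, and SRSF8 (-0.75) and SRSF9 (-0.12) fell most, with SRSF10 at -0.11. Of 10 other kinases, phosphatase subunits and import factors of SR proteins, 5 rose, 4 fell and 1 was not called. CLK2, the paralog of CLK1 and CLK4, was among those that fell, from group means of 45.9 to 53.2 CPM in DMSO to 12.4 to 14.7 CPM in arsenite, a log2 fold change of -1.88 (SE 0.03, adjusted p 3.27e-28). PPP1R8, a nuclear regulator of protein phosphatase 1, changed by -0.67, while DYRK1A (1.21) and DYRK1B (0.42), kinases related to the CLKs, rose. The CLK genes thus did not move as a group: CLK1 and CLK4 rose, CLK3 rose by 0.32 on the log2 scale, and CLK2 fell.

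Of 22 SR-related proteins, which carry RS-rich stretches outside the SR family proper, 13 rose, 6 fell and 3 were not called (median 0.21). CCNL1, a cyclin with an RS domain, went from group means of 22.6 to 24.2 CPM to 463 to 512 CPM, a log2 fold change of 4.37 (SE 0.04), larger than that of any of the 10. RSRC2 rose by 3.23, and SON, a nuclear speckle scaffold, and NKTR fell by 1.04 and 0.59 on the log2 scale. Of 24 hnRNP and PTB proteins, RNA-binding proteins that often oppose SR proteins, 8 rose, 9 fell and 7 were not called (median 0.00). PTBP2, the neuronal PTB paralog, rose by 2.02 and HNRNPC by 0.36, and HNRNPA0 changed by -0.69 and SYNCRIP by -0.63. Of 30 core spliceosome genes, 11 rose, 6 fell and 13 were not called, all between -0.39 (PRPF8 and SF3B3) and 0.49 (SF3A2). SNRPB rose by 0.44. Of 14 nonsense-mediated decay genes 5 rose, 7 fell and 2 were not called, led by UPF3A (0.69) and SMG9 (0.54) upward and SMG8 (-1.12) and SMG1 (-0.65) downward. Of 6 heat shock genes kept as a reference, DNAJB1 (3.68), HSPH1 (1.55) and HSP90AA1 (0.68) rose and HSPA8 fell (-0.64). HSPA1A and HSPA1B, near-identical copies whose reads are hard to assign, were not called.

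H2O2 called few genes of these lists: 1 of 6 other SR proteins (TRA2B, 0.07), 1 of 10 kinases and phosphatase subunits (SRPK3, -0.59), 4 of 22 SR-related proteins (RSRC2, 0.31, and CCNL1, -0.13, ACIN1, -0.11, and RSRC1, -0.11), 1 of 24 hnRNP and PTB proteins (HNRNPA1, 0.12) and 1 of 30 core spliceosome genes (SF3A2, 0.19). Of 14 nonsense-mediated decay genes 5 rose and 0 fell (UPF3B, 0.37, UPF2, 0.20, SMG6, 0.17, UPF1, 0.13, and SMG5, 0.09), and of 6 heat shock genes HSPA1B was higher (0.17) and DNAJB1 lower (-0.09). DNAJB1 was called in 13 and SRPK3 in 23 of 34 alternative settings. These list counts rest on the outlying libraries, and over all tested genes H2O2 called 6.78% higher and 5.30% lower. Without those libraries 3 of the 6 other SR proteins and 11 of the 22 SR-related proteins were called. So were 15 of the 30 core spliceosome genes (4 higher and 11 lower). The share of all genes called rose too, to 28.6% in that fit.

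**Figure D5:**
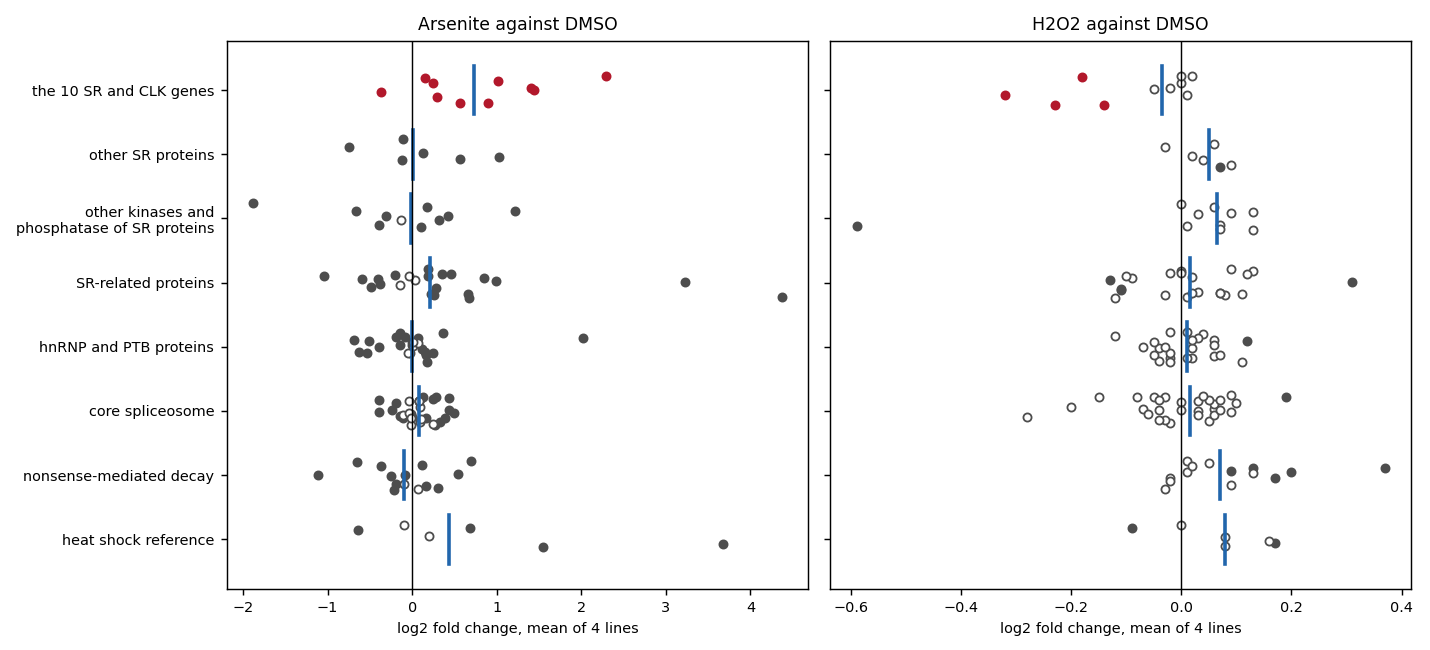
Log2 fold change against DMSO, averaged over the 4 lines, for the 10 genes (red) and 7 lists of related genes, in arsenite (left) and H2O2 (right, on a narrower axis). Filled points are called, open points not, the blue bar is the list's median, and vertical jitter has no meaning; in arsenite the 10 genes have a median of 0.73, and points beyond 3 are CCNL1, RSRC2 and DNAJB1.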

How the data were processed

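RNA was sequenced as 36 strand-specific libraries with paired 100-base reads, from HEK293T TXNL1 knockout cells (12 groups of 3). The authors aligned reads to GRCh38 with qAlign (QuasR) and deposited 1 table of raw counts per gene with exon lengths. Whether mates or strand were used in counting is not given in the sources used here. Samples were grouped by the labels of line and treatment.

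The counts were kept as deposited. Genes with at least 10 counts over the 3 DMSO vector libraries were kept (22486 of 42726 with any count), after the study's filter. Library sizes were normalized by TMM, and a model with a mean for each of the 12 groups was fitted with edgeR 4.0.16 (quasi-likelihood test, limma 3.58.1, R 4.3.3) to all 36 libraries. P-values were adjusted by Benjamini-Hochberg over all genes tested within each comparison, and an adjusted p under 0.05 was a call. Intervals are 95%. CPM and RPKM were computed from counts and TMM-scaled library sizes. DESeq2 1.42.0, which the submitters' processing notes also name, was an alternative. Other alternatives were the scaling, the filter, the threshold, leaving out libraries, fitting only the groups compared, and the replicate number as a block. The pipeline was tested on simulated data.

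The 10 members and all gene lists were chosen with earlier results of these data known. All 10 members are named, with the 3 genes most like each, TXNL1, and, for each list in the averaged comparisons, the 2 called genes that rose and the 2 that fell most and single genes where a list had 5 or fewer calls. CLK3, SRSF10, SRSF12, HSP90AA1 and, for H2O2, SMG5, SMG6 and UPF1 were named after their values were seen. Likeness was Pearson's r over 12 group means of log2 CPM. Genes overlapping members and their pseudogenes were taken from GENCODE v44. Replicates differed beyond sampling noise in every pair, so no library was counted as deposited in duplicate. Depth differed between libraries, and the members' counts were 715 or more. The biological coefficient of variation was 12.4% over all genes and is not the members' own spread. In vector DMSO TRA2A had an SD of 1.6 CPM around a mean of 97.21, and CLK4 an SD of 0.0322 around 16.52. Whether counting or spread between libraries limits the members' precision was not tested.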

Additional observations from a re-analysis of the deposited data

How the results depend on the processing

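The direction of every member called in a comparison was the same under every alternative. When a log2 fold change of 0.5 or more in either direction was also asked for, members called were 6 in arsenite vector, WT and SxxS, 5 in arsenite DR-RD, 6 in arsenite averaged, 6 in arsenite against H2O2, and 0 in every H2O2 comparison with DMSO and in WT against vector. With total counts, H2O2 in DR-RD called 1. With no filter beyond 1 count, H2O2 called 0 in vector, 1 in DR-RD and 0 in SxxS, and WT against vector 0. Without both outlying WT libraries, H2O2 called 2 in vector and 3 in SxxS, and WT against vector 2. In that fit H2O2 also gained CLK1 in DR-RD (adjusted p 0.0291) and lost CLK4 in WT (adjusted p 0.056). Arsenite there gained SRSF3 in DR-RD and SRSF11 in SxxS and lost SRSF11 in WT. SNRPC, uncalled at 0.00 for H2O2 averaged over lines, became called at -0.07 in the same fit. With only the groups compared, H2O2 called 2 in vector, 0 in WT, 1 in DR-RD and 3 in SxxS, WT against vector 2 and SxxS against vector 1, and arsenite in WT lost SRSF1, SRSF3 and SRSF11. With filterByExpr, arsenite lost SRSF3 in vector and SRSF2 in DR-RD; with DESeq2 size factors in edgeR it lost these and SRSF11, the last averaged and against H2O2. By DESeq2, H2O2 in SxxS called 2. With every count halved, chosen after seeing the data because even low counts were commoner than odd ones, WT against vector called 0. The share of all genes called also differed between settings, so these counts do not compare members with other genes. Smaller shifts in the number of members called are not all listed. The cause of the shifts was not tested.

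Leaving out 1 library at a time, members called by arsenite were 8 in vector, 9 to 10 in WT, 7 to 8 in DR-RD, 8 to 9 in SxxS and 9 to 10 averaged. By H2O2 they were 1 in vector, 2 to 5 in WT, 1 to 2 in DR-RD, 0 in SxxS and 3 to 4 averaged. Arsenite against H2O2 called 9 to 10, and the comparisons between lines in DMSO and both interactions called 0. Where 1 group kept 2 libraries, its spread was taken from the shared model. The counts are given without the share of all genes called in each fit, so they do not compare members with other genes.

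Replicate numbers recur in every group, but samples of the same number did not deviate together: 53 of 198 same-number pairs correlated over 0.1 (median 0.0172), against 90 of 396 pairs of different number. With the replicate block, arsenite in vector called 8 members, SRSF3 being lost (0.18, adjusted p 0.0544), and no other member's call changed. Precision is limited by 3 libraries per group and by the 2 outlying WT libraries, which share 1 model of spread with the rest.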
